A study of Mus musculus with 6 samples.

Results

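Genes for the detection of double-stranded RNA and other misplaced nucleic acids inside the cell were examined in mouse liver after knockdown of the long non-coding RNA Hnf1aos1. The 10 genes were chosen by symbol out of the 40803 mouse genes of the count table. They are the sensors and effectors Rigi, Ifih1, Dhx58, Eif2ak2, Tlr3, Zbp1 and Adar, 7 genes, and the adaptors Mavs, Trim25 and Sting1, 3 genes. The Oas genes, a further family of RNA sensors, were not included. Tlr3 sits in endosomes rather than in the cytosol, Adar edits RNA rather than signalling, and Trim25 is a ubiquitin ligase, so that the names "sensor" and "adaptor" are used here in a wide sense.

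RNA-seq libraries came from the livers of 6 male C57BL6 mice, 1 library per mouse. The control group, rAAV8-Scramble (scramble group, n = 3), had received a recombinant adeno-associated virus of serotype 8 with a scrambled short hairpin RNA (shRNA), and the group rAAV8-Hnf1aos1 (knockdown group, n = 3) had received the same kind of virus with an shRNA against Hnf1aos1. In both groups the U6 promoter drove the hairpin, the vector carried an EGFP reporter, the virus was given into the tail vein at about 6 weeks of age, and the liver was taken 4 weeks later from mice on normal food. Both groups therefore carried a virus and a hairpin RNA, no library came from a mouse without virus, and each group had 1 hairpin sequence, so that loss of Hnf1aos1 and any other effect of that hairpin cannot be told apart.

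RIG-I-like receptors are helicases that bind viral RNA in the cytosol and pass the signal to MAVS on the mitochondrial surface, from where kinases switch on type I interferon genes. PKR and ZBP1 answer to the same kinds of RNA by stopping protein synthesis or by starting cell death, TLR3 surveys the content of endosomes, and STING serves the sensing of DNA. Many of the sensors are themselves induced by interferon through the interferon-stimulated response element (ISRE) in their promoters, which makes their mRNA a common readout of interferon signalling in liver.

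Promoters of the members were taken from RefSeq (GRCm38.p6) as windows from 250 bases before to 50 bases after each transcription start, and 7 of the 10 members had at least 1 window, with 9 windows in all because Adar had 3. No window was available for Dhx58, Zbp1 and Sting1, so their promoters were not searched. The core of the ISRE was searched on both strands as GAAANNGAA. It occurred in 5 of the 9 windows, belonging to 5 members, Rigi, Ifih1, Eif2ak2, Adar and Trim25, and it occurred in 8.56% of the 32851 promoter windows of the whole table. The window of Tlr3, like that of Mavs, lacks the core but is not printed. The following 6 windows are shown because they pair 5 promoters that hold the core with that of Mavs, which does not. They lie at chr4:40239776-40240075 on the minus strand (Rigi), chr2:62646206-62646505 on the minus strand (Ifih1), chr17:78882523-78882822 on the minus strand (Eif2ak2), chr3:89730468-89730767 on the plus strand (Adar, the third of its windows), chr11:88999153-88999452 on the plus strand (Trim25) and chr2:131233813-131234112 on the plus strand (Mavs). Each is printed on the strand of its gene, with the start at the 251st letter and matches to the core in capitals.
Rigi: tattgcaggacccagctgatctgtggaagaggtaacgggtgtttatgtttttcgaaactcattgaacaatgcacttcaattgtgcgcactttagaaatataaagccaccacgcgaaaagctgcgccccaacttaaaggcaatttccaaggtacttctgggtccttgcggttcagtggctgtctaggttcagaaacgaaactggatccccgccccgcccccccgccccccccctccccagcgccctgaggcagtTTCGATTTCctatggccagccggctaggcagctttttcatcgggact
Ifih1: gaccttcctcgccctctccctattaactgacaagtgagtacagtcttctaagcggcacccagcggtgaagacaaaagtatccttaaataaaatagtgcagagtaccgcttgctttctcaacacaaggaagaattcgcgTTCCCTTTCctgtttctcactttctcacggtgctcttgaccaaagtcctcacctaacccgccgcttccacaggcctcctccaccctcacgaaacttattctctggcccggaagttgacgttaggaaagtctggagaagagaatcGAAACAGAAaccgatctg
Eif2ak2: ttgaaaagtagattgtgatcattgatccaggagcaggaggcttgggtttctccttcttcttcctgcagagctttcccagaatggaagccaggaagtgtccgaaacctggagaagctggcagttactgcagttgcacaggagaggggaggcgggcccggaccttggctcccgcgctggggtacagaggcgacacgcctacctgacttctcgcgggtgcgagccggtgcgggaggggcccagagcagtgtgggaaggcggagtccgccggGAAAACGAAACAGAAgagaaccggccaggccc
Adar: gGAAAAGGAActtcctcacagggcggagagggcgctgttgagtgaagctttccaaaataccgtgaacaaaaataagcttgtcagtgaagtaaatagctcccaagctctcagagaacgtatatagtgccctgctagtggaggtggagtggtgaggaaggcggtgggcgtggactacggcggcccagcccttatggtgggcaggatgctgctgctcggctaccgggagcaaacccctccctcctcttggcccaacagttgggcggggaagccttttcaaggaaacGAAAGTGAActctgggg
Trim25: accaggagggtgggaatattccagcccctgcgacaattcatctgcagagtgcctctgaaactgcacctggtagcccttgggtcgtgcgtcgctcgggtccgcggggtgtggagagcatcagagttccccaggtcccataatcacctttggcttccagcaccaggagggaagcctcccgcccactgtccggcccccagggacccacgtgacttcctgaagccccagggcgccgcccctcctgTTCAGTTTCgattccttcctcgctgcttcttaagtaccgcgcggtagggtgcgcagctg
Mavs: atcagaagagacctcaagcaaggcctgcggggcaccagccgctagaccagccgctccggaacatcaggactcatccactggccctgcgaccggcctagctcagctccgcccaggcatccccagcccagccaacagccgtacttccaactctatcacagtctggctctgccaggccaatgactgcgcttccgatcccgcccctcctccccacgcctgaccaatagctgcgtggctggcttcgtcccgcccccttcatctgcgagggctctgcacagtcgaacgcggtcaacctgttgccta

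In Rigi the match was on the other strand and began 3 bases after the start base, and in Trim25 it was on the other strand and began 9 bases before the start base. Ifih1 held 1 match 112 bases before the start base and 1 match 32 bases after it. In Eif2ak2 both matches lay just downstream of the start base, at 18 and 24 bases, and shared 3 letters. The third window of Adar held 1 match 249 bases before and 1 match 33 bases after the start base, while the other 2 windows of Adar and the window of Tlr3 held none. A match describes these letters only and does not show that a factor was bound.

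The libraries held 14704746 to 19462398 counts on mouse genes. Normalized counts are given per gene, scaled with edgeR's TMM factors to the average size of the 6 libraries. edgeR's quasi-likelihood test was applied to the 16327 genes that passed the filter on low counts, with Benjamini-Hochberg adjustment over these genes, SE stands for the standard error of a log2 fold change, and a gene is called here at an adjusted p under 0.05. All 10 members passed the filter. The hepatocyte markers Alb, Apoa1, Apob, Ttr, Cyp2e1, Cps1, Tat and Asgr1 were all measured, with summed normalized counts of 1401150 to 1759820 per library. Hnf1aos1, the targeted RNA, had 512, 491 and 620.3 normalized counts in scramble replicates 1, 2 and 3, and 278, 258 and 433 in knockdown replicates 1, 2 and 3. The groups did not overlap and 59.8% of the scramble level was left, but the log2 fold change of -0.74 ± 0.195 (SE) was not called by edgeR's test (adjusted p = 0.0625), and knockdown replicate 3 retained the most.

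The sensors were higher in the knockdown group. Of the 7 sensors 6 were called higher in the knockdown group and 7 had no overlap between the groups, and of the 3 adaptors 1 was called, so that 7 of the 10 members were called higher and 0 lower. Over all genes tested, 3.09% were called higher and 3.23% lower, and 15.2% had every knockdown library above every scramble library. With a log2 fold change above 1 required as well, 4 members passed, Rigi, Ifih1, Dhx58 and Eif2ak2, against 0.784% of all genes, and DESeq2 called 8 members, Zbp1 being the added one, against 3.91% of all genes. The median log2 fold change was 1.30 over the sensors, 0.08 over the adaptors and -0.00040 over all genes tested. In whole liver, a change in the number of cells that carry an mRNA and a change in the mRNA per cell cannot be told apart. The separate mice give the replicate error, and with 3 against 3 an exact two-sided permutation test of a single gene cannot go below 0.1, the value that each of the 8 non-overlapping members reached.

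**Figure D1:**
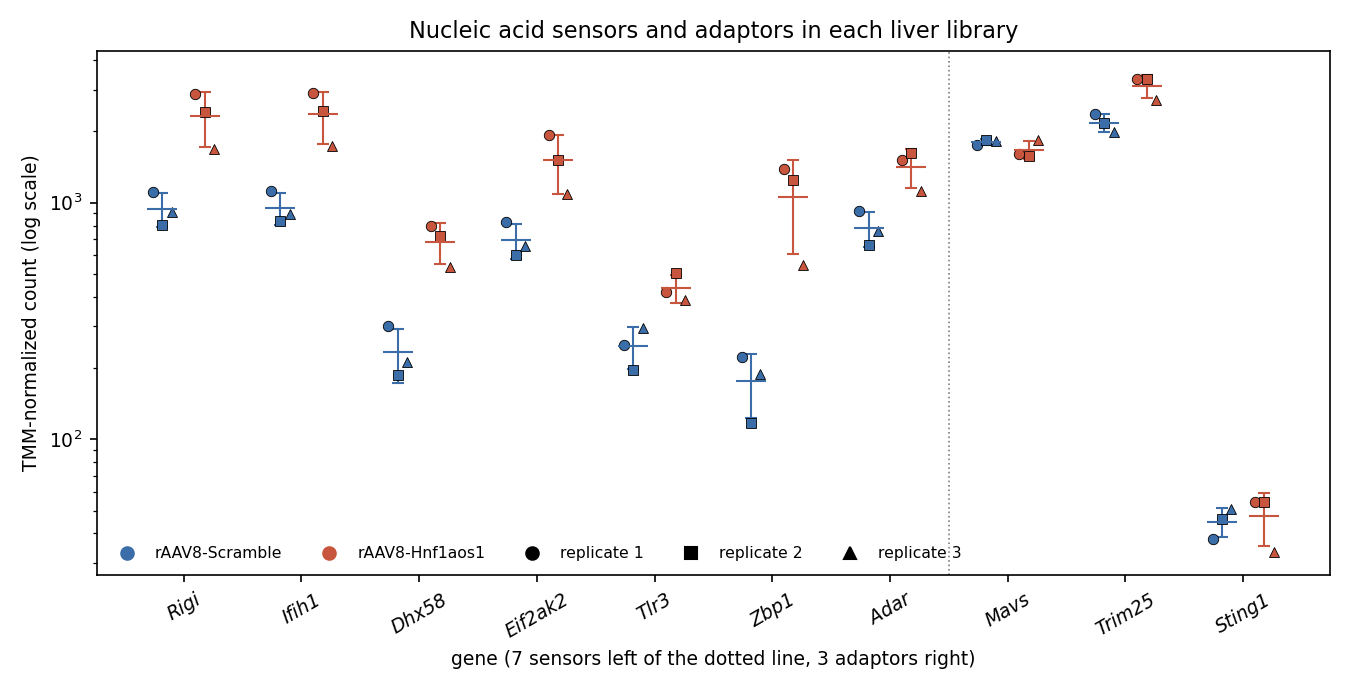
Normalized counts (log axis) of the 10 members in the 6 libraries, by group, with the mean ± SD of 3 libraries per group and a marker shape per replicate number. The 7 sensors and Trim25 show no overlap between the groups, with Rigi at 801 to 1109 against 1681 to 2875, while Mavs and Sting1 overlap.

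Rigi encodes RIG-I, the receptor for short double-stranded RNA with a triphosphate end. The gene spans chr4:40203773-40239828 on the minus strand of GRCm38, the build of all positions given here. It had normalized counts of 1109, 801 and 915 in scramble replicates 1, 2 and 3, and 2875, 2413 and 1681 in knockdown replicates 1, 2 and 3. Every knockdown library was above every scramble library, with knockdown replicate 3 closest to the controls. The means were 942 ± 156 (SD, n = 3) and 2323 ± 602 (SD, n = 3), a 2.47-fold difference (95% confidence interval 1.75 to 3.47) and a log2 fold change of 1.30 ± 0.210 (SE, adjusted p = 0.0181 by edgeR's test).

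Ifih1 encodes MDA5, which binds long double-stranded RNA, lies at chr2:62595798-62646255 on the minus strand, and followed Rigi closely. It had 1119, 836 and 896 normalized counts in the scramble libraries and 2894, 2442 and 1738 in the knockdown libraries. The libraries stood in the same order as for Rigi in the knockdown group and in the scramble group. Its log2 fold change was 1.31 ± 0.195 (SE, adjusted p = 0.0121 by edgeR's test), or 2.48-fold.

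Dhx58 encodes LGP2, which lacks the signalling domains of the other RIG-I-like receptors and tunes them. The gene lies at chr11:100694884-100704271 on the minus strand. It had 301, 188 and 211 normalized counts in the scramble libraries and 795, 724 and 533 in the knockdown libraries. The highest scramble library, replicate 1, was well below the lowest knockdown library, replicate 3. The mean went from 233 ± 59.6 (SD, n = 3) to 684 ± 136 (SD, n = 3), with a log2 fold change of 1.55 ± 0.207 (SE, adjusted p = 0.00826 by edgeR's test). Among the called members this was the largest change, and its 95% confidence interval, 1.07 to 2.02, overlapped those of Rigi (0.81 to 1.79) and Ifih1 (0.86 to 1.76). Of its exonic bases, 4.31% overlap the antisense gene Dhx58os.

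Eif2ak2 encodes PKR, a kinase that stops translation by phosphorylating eIF2 alpha once it binds double-stranded RNA, from a gene at chr17:78852564-78882573 on the minus strand. It had normalized counts of 828, 599 and 657 in the scramble libraries and 1931, 1510.0 and 1089.6 in the knockdown libraries. The groups did not overlap, and the knockdown libraries spread more widely than the controls, from 1089.6 to 1931. The log2 fold change was 1.12 ± 0.222 (SE, adjusted p = 0.0360 by edgeR's test). The call was lost when no filter on low counts was used (adjusted p = 0.0965 by edgeR's test). That setting tested 27496 genes and called 1902 of them, against 1032 with the filter. The cause of the loss was not tested. On the opposite strand, exons of Gm26637 cover 3.4% of its exonic bases, with 17 to 21 counts in the scramble libraries and 32 to 48 in the knockdown libraries.

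Zbp1 encodes a sensor of Z-form nucleic acids that triggers necroptosis, from a gene at chr2:173206612-173218923 on the minus strand. It had 223, 117 and 188 normalized counts in the scramble libraries and 1388, 1240.1 and 544 in the knockdown libraries. On the log2 scale it had the largest difference of the 10 members and the largest standard error, and knockdown replicate 3 stood far below the other two knockdown libraries but still above every control. The 5.99-fold difference (95% confidence interval 2.53 to 14.2) corresponds to a log2 fold change of 2.58 ± 0.474 (SE) and just missed the threshold in edgeR's test (adjusted p = 0.0517). Other settings put Zbp1 past it, with adjusted p-values of 4.89e-06 by DESeq2, 0.0109 by limma's voom and 0.000354 by edgeR without knockdown replicate 3; over the settings tried the adjusted p ranged up to 0.189.

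Tlr3, the endosomal receptor for double-stranded RNA at chr8:45395665-45411080 on the minus strand, had 251, 196 and 296 normalized counts in the scramble libraries and 419, 503 and 389 in the knockdown libraries. The groups did not overlap, and here knockdown replicate 2 was the highest. The log2 fold change was 0.82 ± 0.154 (SE, adjusted p = 0.0141 by edgeR's test), or 1.76-fold. Of the exonic bases of Tlr3, 7.32% overlap the antisense gene Gm45542.

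Adar, whose product converts adenosine to inosine in double-stranded RNA and so keeps the cell's own RNA from setting off MDA5, also rose. Its gene lies at chr3:89715022-89753446 on the plus strand. It had 918, 662 and 762 normalized counts in the scramble libraries and 1509.6, 1618 and 1123 in the knockdown libraries. All 3 knockdown libraries were above the controls, again with replicate 3 the lowest of them. The log2 fold change was 0.86 ± 0.158 (SE, adjusted p = 0.0177 by edgeR's test), or 1.81-fold. The gene-level counts do not separate the transcripts that start at the different Adar promoters. Exons of Chrnb2 on the opposite strand cover 16.8% of the exonic bases of Adar, but Chrnb2 had only 34 to 70 counts per library.

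The mitochondrial adaptor Mavs, on which RIG-I and MDA5 depend and whose gene lies at chr2:131234063-131248025 on the plus strand, had 1744, 1845 and 1822 normalized counts in the scramble libraries and 1612, 1576 and 1834 in the knockdown libraries. The groups overlapped, since knockdown replicate 3 lay among the controls. The log2 fold change was -0.11 ± 0.0902 (SE, adjusted p = 0.506 by edgeR's test), with a 95% confidence interval of -0.31 to 0.09, and its sign turned to 0.09 when library sizes were taken from the spike-in RNAs, a scaling that moved the median of all genes by 0.20. The interval on the fold scale, 0.809 to 1.06, lay below the intervals of the 7 sensors.

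Sting1, the adaptor of cytosolic DNA sensing, was the least abundant member, with 38.0, 46.1 and 50.6 normalized counts in the scramble libraries and 54.4, 54.2 and 33.5 in the knockdown libraries. Both the lowest and the highest value belonged to the knockdown group. The log2 fold change was 0.08 ± 0.258 (SE, adjusted p = 0.892 by edgeR's test), and at this depth its 95% confidence interval, -0.49 to 0.64, could not separate a fall from a rise of up to 1.56-fold.

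Trim25, a ubiquitin ligase that has been linked to the activation of RIG-I, was the adaptor that was called. Its gene lies at chr11:88999376-89020293 on the plus strand. It had 2372, 2177 and 1989.6 normalized counts in the scramble libraries and 3332, 3318 and 2713 in the knockdown libraries. The groups did not overlap, and the rise was smaller than that of any sensor in its point estimate. The log2 fold change was 0.52 ± 0.109 (SE, adjusted p = 0.0217 by edgeR's test), or 1.43-fold, with a 95% confidence interval of 0.28 to 0.76 that overlapped those of Tlr3 (0.48 to 1.16), Adar (0.50 to 1.21) and Eif2ak2 (0.59 to 1.65).

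**Figure D2:**
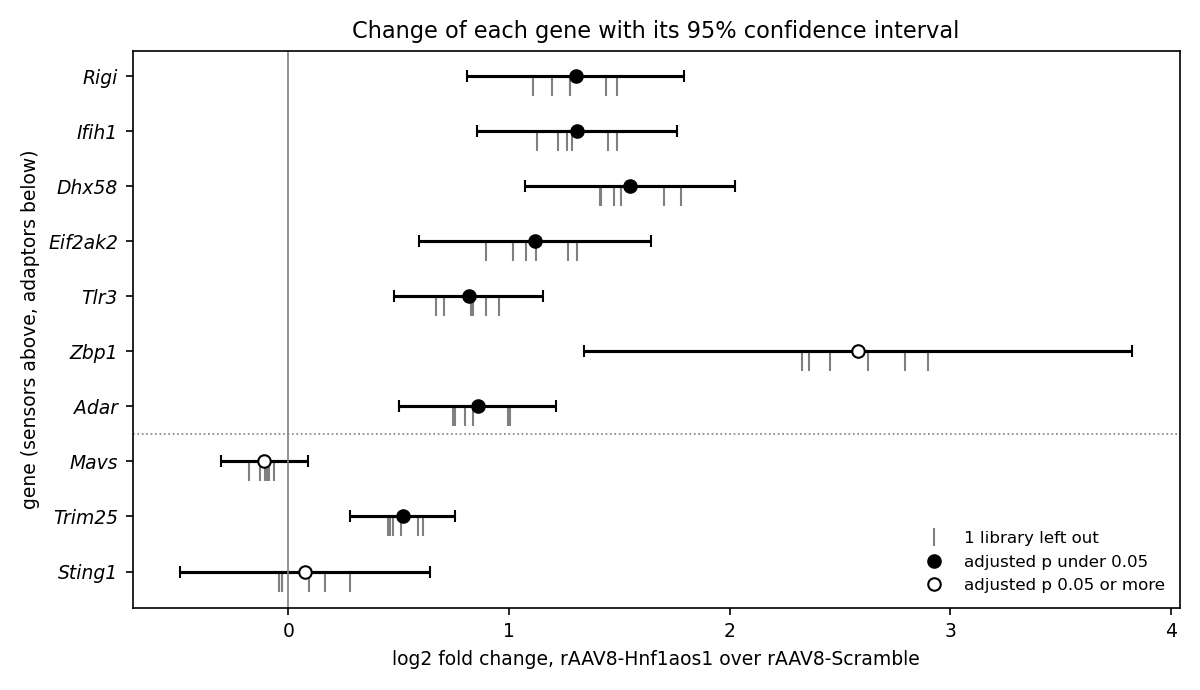
Log2 fold change of each member, knockdown over scramble, with its 95% confidence interval from edgeR's fit and, as grey ticks, the value with 1 library left out. The 7 sensors lie from 0.82 to 2.58 and the adaptors from -0.11 (Mavs) to 0.52 (Trim25).

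Sensors and adaptors were set against each other within each library, as the mean log2 CPM (counts scaled by library size, prior count 2) of the 7 sensors minus that of the 3 adaptors. This difference was 0.017, -0.59 and -0.30 in scramble replicates 1, 2 and 3, and 1.07, 0.98 and 0.65 in knockdown replicates 1, 2 and 3. The groups did not overlap, with means of -0.29 ± 0.306 (SD, n = 3) and 0.90 ± 0.223 (SD, n = 3), a shift of 1.19 log2 units. The mean of the sensors rose by 1.34 log2 units and that of the adaptors by 0.15, in the same direction. The sensors went from 4.76 ± 0.269 to 6.10 ± 0.367 (SD, n = 3 each), and the adaptors from 5.05 ± 0.0415 to 5.20 ± 0.146 (SD, n = 3 each). Since the genes were named with results of these libraries known, no test was made of this difference. It was 1.27 without Adar among the sensors, 1.37 without Trim25 among the adaptors, and 1.04 to 1.35 with 1 library left out.

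The libraries of a group kept nearly the same order from sensor to sensor. Knockdown replicate 3 was the lowest knockdown library in 7 of 7 sensors, and in 9 of the 10 members, Mavs being the exception. In the scramble group, replicate 2 was the lowest in 7 of 7 sensors and replicate 1 the highest in 6, the exception being Tlr3. Relative to the scramble mean, the sensors stood 1.61, 1.50 and 0.92 log2 units higher in knockdown replicates 1, 2 and 3, and the adaptors 0.24, 0.23 and -0.016. Knockdown replicate 3 also retained the most Hnf1aos1 of its group, 433 normalized counts against 278 and 258. In the scramble group the library with the lowest sensors, replicate 2, had the least Hnf1aos1, 491 normalized counts against 512 and 620.3. The relation between Hnf1aos1 and the sensors across libraries was not tested.

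Single libraries decided how many members were called, though no called member changed direction. Without knockdown replicate 3, edgeR called 8 of the 10 members, 7 sensors with Zbp1 among them and Trim25, against 6.06% of all genes called higher. Without scramble replicate 2 it called 2 members (Dhx58 and Tlr3, against 1% of all genes), without scramble replicate 3 only Tlr3 (0.228% of all genes), and without knockdown replicate 2 only Dhx58 (0.836% of all genes). The log2 fold changes moved less, from 1.11 to 1.49 for Rigi, from 1.41 to 1.78 for Dhx58 and from 0.67 to 0.96 for Tlr3 over the 6 libraries left out.

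Ratios of raw counts within a library do not depend on its scaling and show how the members changed relative to Rigi. Ifih1 had 0.980 to 1.04 counts per count of Rigi in the scramble libraries and 1.01 to 1.03 in the knockdown libraries, a nearly fixed ratio over a wide range of levels. Zbp1 had 0.147 to 0.206 counts per count of Rigi in the scramble libraries and 0.324 to 0.514 in the knockdown libraries. Dhx58 had 0.231 to 0.271 in the scramble libraries and 0.277 to 0.317 in the knockdown libraries. In these ratios the knockdown libraries were all higher for Zbp1 and Dhx58, while the groups overlapped for Ifih1.

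The ratios of Eif2ak2 and Adar to Rigi were lower in every knockdown library. For Eif2ak2 the ratio was 0.718 to 0.748 in the scramble libraries and 0.626 to 0.672 in the knockdown libraries. For Adar it was 0.826 to 0.833 in the scramble libraries and 0.525 to 0.671 in the knockdown libraries, with knockdown replicate 1 the lowest. Tlr3 overlapped, at 0.227 to 0.323 against 0.146 to 0.232, and the ratios of Mavs, Trim25 and Sting1 were lower in every knockdown library. Rigi, the denominator, was itself 2.47-fold higher in the knockdown group, so that the ratio of an unchanged gene falls as well. The share of all genes whose ratio to Rigi had no overlap was not computed. Each of the 7 ratios without overlap had the smallest p that an exact two-sided permutation test allows, 0.1, or 0.129 after Benjamini-Hochberg adjustment over the 9 ratios, so none can pass a threshold of 0.05 in this design.

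**Figure D3:**
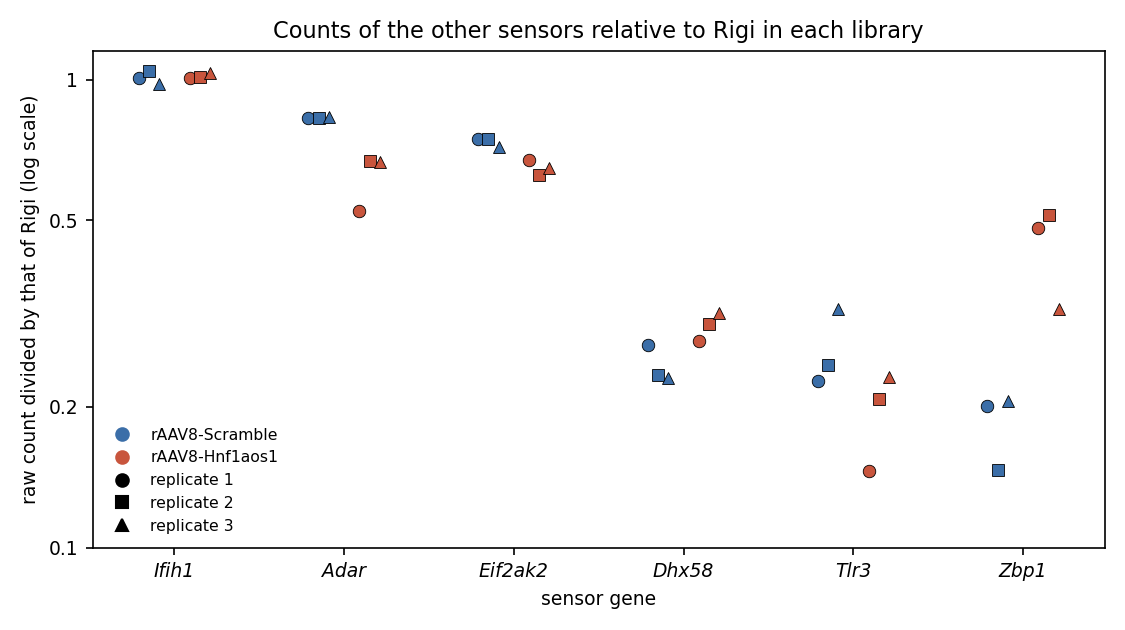
Raw counts of the other sensors per count of Rigi in the same library (log axis), by group, with a marker shape per replicate number. The points of Ifih1 stay near 1 in both groups, Zbp1 and Dhx58 are higher and Eif2ak2 and Adar lower in the knockdown group.

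Over the 6 libraries, the genes whose pattern was nearest to that of Rigi included Ifih1, Ly6e, Ifit2 and Eif2ak2. Nearness was measured among the 16327 genes tested as the root mean square difference of log2 CPM after centring each gene, and it was 0.0293, 0.0856, 0.0858 and 0.0994 log2 units for these 4. Dhx58 ranked 23rd, Adar 72nd, Tlr3 210th and Trim25 454th by this measure. Sting1 (5529th), Zbp1 (5819th) and Mavs (10095th) ranked far lower. The measure also counts the size of a change, and the log2 fold change of Zbp1 was 2.58 against 1.30 for Rigi. The highest and the lowest library of each group were the same for Zbp1 as for Rigi. The measure describes 6 libraries that differ in group and carries no test.

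The amounts of the mRNAs relative to each other were read from the deposited TPM values, which are scaled by library and by gene length. In the scramble group Mavs was the most abundant member, with 63.1 ± 2.75 TPM (SD, n = 3), ahead of Trim25 with 50.7 ± 3.52 TPM (SD, n = 3) and of Rigi with 24.7 ± 4.11 TPM (SD, n = 3), and the ranges of these 3 did not overlap. Ifih1 (22.0 ± 3.37 TPM) overlapped with Rigi and stood apart from Adar (15.9 ± 2.66 TPM). Adar, Eif2ak2 (13.6 ± 2.30 TPM), Dhx58 (12.2 ± 3.06 TPM), Zbp1 (10.6 ± 3.31 TPM) and Tlr3 (6.40 ± 1.46 TPM) each overlapped with the next, and Sting1 was last with 2.52 ± 0.412 TPM (SD, n = 3 for each).

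In the knockdown group this order was compressed at the top. Trim25 (69.0 ± 9.004 TPM), Zbp1 (60.8 ± 26.9 TPM), Rigi (58.1 ± 16.6 TPM), Mavs (55.5 ± 4.41 TPM) and Ifih1 (51.9 ± 14.2 TPM) came first, and the range of each overlapped with that of the next. Dhx58 (34.2 ± 7.58 TPM), Eif2ak2 (28.3 ± 8.72 TPM) and Adar (27.4 ± 5.23 TPM) followed, and Tlr3 (10.7 ± 1.31 TPM) and Sting1 (2.52 ± 0.671 TPM) stood apart below them (SD, n = 3 for each). Rigi, whose TPM had been below that of Mavs in each scramble library, was above Mavs in 2 of the 3 knockdown libraries.

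Outside the members, 7 lists with 77 genes were examined, of which 65 passed the filter. edgeR called 8 of the 65 higher and 0 lower, against 3.09% and 3.23% of all genes tested, and their median log2 fold change was 0.16. In edgeR's test 22 of the 65 had an unadjusted p under 0.05, against 23.4% of all genes tested. DESeq2 called 11 higher and 1 lower, where it called 3.91% of all genes higher. Among 19 cofactors and regulators of RNA sensing 2 were called higher by edgeR (3.09% of all genes tested). Ddx60, a helicase that has been linked to RIG-I signalling, went from 436 ± 156 to 1758 ± 441 normalized counts (SD, n = 3 each), with a log2 fold change of 2.01 ± 0.328 (SE, adjusted p = 0.0335 by edgeR's test). Zc3hav1, the zinc finger antiviral protein, which binds RNA rich in CpG, went from 1210.2 ± 161 to 1958 ± 177 normalized counts (SD, n = 3 each), with a log2 fold change of 0.69 (adjusted p = 0.00799 by edgeR's test). The median of these 19 was 0.11.

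Of the 7 endosomal receptors and their partners 3 were called higher by edgeR, against 3.09% of all genes tested. The median log2 fold change of the 7 was 0.54. The 3 called were Tlr7, a receptor for single-stranded RNA (0.90), Myd88, the adaptor of most Toll-like receptors but not of TLR3 (0.58), and Unc93b1, the chaperone that carries such receptors and TLR3 to endosomes (0.47), with adjusted p-values of 0.0311, 0.0239 and 0.0381 by edgeR's test. DESeq2 called the same 3, and voom called Tlr7 and Myd88. Of 11 genes of DNA sensing and nucleases tested, 2 were called higher by edgeR, against 3.09% of all genes tested. Samhd1, a nuclease and dNTP hydrolase, had a log2 fold change of 0.55 (adjusted p = 0.0383 by edgeR's test). Ifi204, a DNA-binding protein of the p200 family, had 0.73 (adjusted p = 0.0414 by edgeR's test). Both were called by DESeq2 and not by voom. Eif2s1, which encodes eIF2 alpha, the substrate of PKR, was the gene called among 6 eIF2 alpha kinases, phosphatases and their substrate, with a log2 fold change of 0.53 (adjusted p = 0.0308 by edgeR's test).

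Of the 15 kinases and factors downstream of the adaptors edgeR called 0, with 5 at an unadjusted p under 0.05 (23.4% of all genes tested), while DESeq2 called 1 higher and 1 lower and voom called 1 higher. Irf7, the interferon regulatory factor that amplifies interferon output and the gene called by both other tools, had 639, 311 and 443 normalized counts in the scramble libraries and 1743, 1593 and 964 in the knockdown libraries, a log2 fold change of 1.62 (adjusted p = 0.0696 by edgeR's test). Ikbkg, which encodes the regulatory subunit of the IKK complex and was the gene that DESeq2 called lower, had a log2 fold change of -0.38 (adjusted p = 0.0604 by edgeR's test). Irf3, a factor that MAVS signalling activates through kinases, had a log2 fold change of -0.02 (adjusted p = 0.936 by edgeR's test). Of the 6 necroptosis partners of Zbp1 edgeR called 0, with 2 at an unadjusted p under 0.05 (again beside 23.4% of all genes tested), DESeq2 called 1 and voom called 0. Mlkl, the executioner of necroptosis and the gene that DESeq2 called, had 61.6, 72.4 and 71.5 normalized counts in the scramble libraries and 308, 185 and 101 in the knockdown libraries, a log2 fold change of 1.53 (adjusted p = 0.0760 by edgeR's test). Irf7, Ikbkg, Irf3 and Mlkl were singled out after their values were seen.

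Transcripts of most interferon genes, the output of these sensors, were not detected in these counts. Of 12 interferon genes, 10 had 0 counts in all 6 libraries, among them Ifnb1, Ifna1, Ifna2, Ifna4, Ifna5, Ifna6 and Ifna11 of type I and Ifnl2 and Ifnl3 of type III. A count of 0 allows up to 3 counts, or 0.154 to 0.204 CPM per library. This limit holds for reads with a unique position, the only ones counted. Reads that map equally well to several similar interferon genes would be missed at any depth. Ifng had 5 counts in all, 4 of them in knockdown replicate 1. Ifnk, the 1 interferon gene that passed the filter, had 57.1 to 78.1 normalized counts in the scramble libraries and 34.4 to 51.5 in the knockdown libraries, a log2 fold change of -0.58 (adjusted p = 0.163 by edgeR's test).

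**Figure D4:**
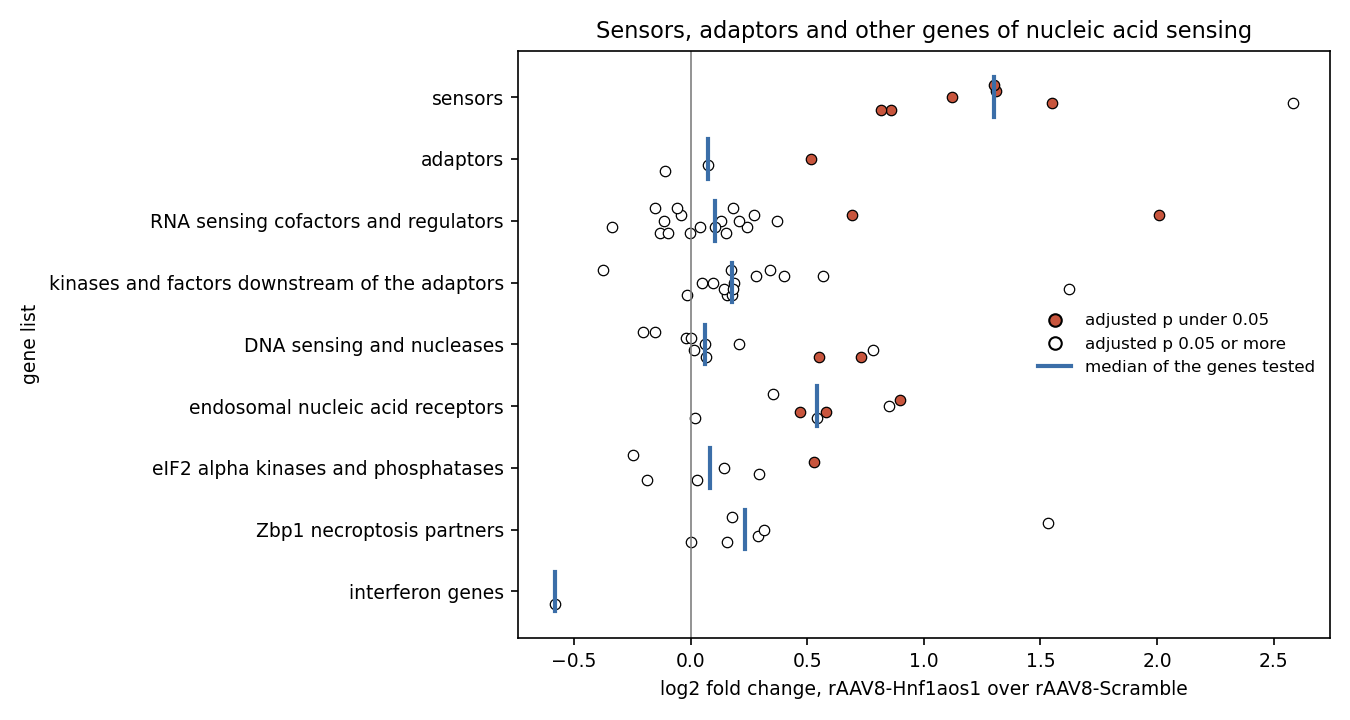
Log2 fold change of each tested gene of the sensors, the adaptors and the 7 other lists, with calls by edgeR's test marked and the list's median as a bar. The 7 sensors lie above 0.8, and the medians of the other lists lie between -0.58 (1 interferon gene) and 0.54 (endosomal receptors).

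Markers of other liver cells were measured beside the sensors, whose summed normalized counts were 3400 to 4749 in the scramble libraries and 7098 to 11813 in the knockdown libraries. For Kupffer cells and macrophages, which express many of these sensors, 11 of 11 markers had a log2 fold change above 0. Over all genes tested this held for 8155 of 16327. In 9 of the 11 every knockdown library was above every scramble library, against 15.2% of all genes tested. edgeR called 4 of the 11 higher, against 3.09% of all genes tested. These were C1qa, Clec4f, C1qb and Adgre1, with changes of 0.55, 0.44, 0.46 and 0.41. DESeq2 called Marco, which had 1.41 in edgeR's fit, in place of Adgre1, and voom called only Clec4f and C1qa. Over the 11 markers the log2 fold change ranged from 0.18 to 1.41. Their summed level was 3452 to 4037 in the scramble libraries and 4293 to 5351 in the knockdown libraries, with a median log2 fold change of 0.45. The part of these cells in the rise of the sensors was not tested. Of the 4 plasmacytoid dendritic cell markers, whose sum was 98.5 to 104 against 57.2 to 69.4, 2 passed the filter. Ccr9 was called lower with a log2 fold change of -0.88, while Siglech overlapped between the groups with 0.22, so that the lower sum came from Ccr9.

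Neutrophil markers summed to 46.1 to 70.4 in the scramble libraries and 78.8 to 116 in the knockdown libraries, with 1 of 7 markers past the filter and Ly6g and Mpo at 0 in all 6 libraries. These sums did not overlap between the groups either, and the part of these cells was not tested. T and NK cell markers summed to 80.0 to 135 against 106 to 133, B cell markers to 49.5 to 54.4 against 44.8 to 65.6, sinusoidal endothelial markers to 4646 to 5129 against 4388 to 5039, stellate cell markers to 4555 to 6152 against 4178 to 5821, and cholangiocyte markers to 296 to 369 against 321 to 490.3. edgeR, DESeq2 and voom called 0 genes of these 6 lists, of which 1 gene, a T and NK cell marker, had an unadjusted p under 0.05 in edgeR's test. Over all genes tested, edgeR called 3.09% higher and 3.23% lower, and 23.4% had an unadjusted p under 0.05. Few of these markers were tested, 4 of 8 for T and NK cells, so that 0 calls do not show that these cells were unchanged. Of the 8 hepatocyte markers 6 had a log2 fold change above 0 (8155 of 16327 over all genes tested), with a median of 0.12. Tat was called lower by edgeR with -0.72, and DESeq2 also called Apoa1 and Apob higher, which had 0.41 and 0.34 in edgeR's fit.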

How the data were processed

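The authors trimmed reads with Trimmomatic, aligned them with STAR and assigned reads with a unique position to exons of genes with featureCounts. They deposited raw counts, used for every test here, and TPM values, used here only for levels between genes. The authors' normalized counts and DESeq2 comparison were not used. The methods name GRCm38 and a poly(A) kit, the sample labels GRCm39 and depletion of ribosomal RNA. The strand setting and annotation release are not given in the sources used here, so reads of genes on opposite strands may be shared.

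The 92 ERCC spike-in rows were left out of 40895. In R 4.3.3, edgeR 4.0.16 was run with TMM, filterByExpr and robust quasi-likelihood fits (glmQLFit, glmQLFTest), group as the only term. The members and gene lists were chosen with earlier results of these data known. The rule for named genes took the members, Hnf1aos1, genes of each list called by edgeR, markers at 0 in all libraries and the 5 genes nearest to Rigi, of which 1 is not reported here. Interferon genes, genes singled out in the text and genes called only by another tool were named beyond this rule. The chi-square statistic between libraries of a group was 7.69 to 31.7 per gene, so none was a repeat of another. Alternatives were DESeq2 1.42.0, limma 3.58.1 (voom), other scalings and filters, the replicate block and each library left out. The code was tested on simulated data. Positions and overlaps came from GENCODE for GRCm38. Depth of 14704746 to 19462398 counts per library and a biological coefficient of variation of 13.9% set the precision.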

Additional observations from a re-analysis of the deposited data

How the results depend on the processing

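The sensors stayed higher in the knockdown group under every alternative run. Of 139 values of single members over all alternatives, 111 kept direction and side of the threshold, 19 lost the call, 5 gained it (all Zbp1) and 4 reversed: Mavs to 0.094 with spike-in library sizes, and Sting1 to -0.03 without scramble replicate 1, to -0.043 without knockdown replicate 1 and to -0.03 without knockdown replicate 2 (from -0.043 to 0.28 with 1 library left out), none of them called. With a log2 fold change above 1 required, 4 members were called in place of 7. With 1 library left out, members called ranged from 1 to 8, sensors from 1 to 7, adaptors from 0 to 1, other pathway genes from 0 to 16 and all genes from 103 to 1881. Other pathway genes called were 5 with library totals and 28 with spike-in library sizes, against 8, and all genes called were 3394 with spike-in library sizes and 1902 without a filter, against 1032. The share of calls that were higher was 48.9%, 30.5% with library totals and 89.3% with spike-in sizes, where the median of the sensors was 1.23 and 1.50 and that of all genes -0.07 and 0.20. Hnf1aos1 was called at -0.74 by DESeq2, -0.74 without a filter, -0.77 with the replicate block and -0.77 by voom, and with 1 library left out it ranged from -1.01 to -0.60, called only without knockdown replicate 3. The cause of these changes was not tested. Same-numbered libraries did not deviate together (correlations across genes of -0.0226, 0.0231 and 0.0032). Such correlations cannot show whether the mice were paired in handling. The replicate block gave 7 members and 878 genes called. Low counts limit Sting1, which a minimum mean of 50 counts removed, and the interferon genes most.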
